A study of Mus musculus with 4 samples.

Results

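The cells described here are mature migratory dendritic cells of the liver, or cells that share their leading genes, chosen by their own UMIs (unique transcript molecules). Barcodes with 300 genes or more, and no more than 20% of UMIs from mitochondrial genes, were kept. A kept cell entered the gate with at least 5 UMIs summed over Ccr7, Fscn1 and Ccl22, at least 2 of these 3 genes detected, at least 10 UMIs of Cd74, and none of Cd3e, Cd79a, Siglech and Clec4f. The gate held 182 of 19176 kept cells: 118 of 5528 in S/S TNF, 50 of 6452 in A/A TNF, 5 of 4366 in S/S baseline and 9 of 2830 in A/A baseline. Levels of Ccr7, Fscn1 and Ccl22 are therefore a description, and what the gate used supports nothing further.

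Single-cell RNA was measured in liver cells from mice aged 2 months, of genotype S/S or A/A, either 3 h after 500 ng of TNF, an inflammatory cytokine, had been injected into the peritoneum, or at baseline. The labels do not spell out the symbols S and A. Each of the 4 groups was 1 library, for which cells of 2 mice had been pooled. Preparation included a spin that enriched non-parenchymal cells, removal of dead cells on Ficoll and a sort that enriched macrophages and live single cells. There were no replicates, so no difference was tested, and every interval in brackets is a 95% interval for counting error only.

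Dendritic cells take up material in tissues and present it to T cells. When they mature they raise Ccr7, the receptor for the lymphatic chemokines, bundle actin into dendrites with fascin (Fscn1), and leave through lymph vessels for the draining node. Mature cells also release Ccl22 and Ccl17, which attract T cells through Ccr4, and express Il4i1, a secreted amino acid oxidase. Conventional type 1 cells (cDC1, marked by Xcr1 and Clec9a) and type 2 cells (cDC2, marked by Cd209a, Mgl2 and Clec10a) can both take this path, and in the liver they lie mainly around the portal tracts.

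The libraries held 5848 barcodes in S/S TNF, 6531 in A/A TNF, 4983 in S/S baseline and 3230 in A/A baseline, with medians of 4723.5 to 6504.5 UMIs per kept cell. Gated cells were deeper, with medians of 20567, 18130.5, 9544 and 14931 UMIs in the same order of libraries, and 2502504, 907852, 41297 and 118291 UMIs in all. At these totals 1 UMI stood for 0.400, 1.10, 24.2 and 8.45 CPM, the depth-scaled count used for all levels below. Of all barcodes, 34 sequences occurred in 2 or more libraries and at most 11 in any pair, and 2 gated cells had a barcode that was also kept in another library.

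By the gate as set, gated cells were most frequent after TNF, and more so in S/S. The order of the libraries changed once cells with markers of other types were left out. They made up 2.13% [1.77 to 2.55] of kept cells in S/S TNF and 0.775% [0.576 to 1.02] in A/A TNF, against 0.115% [0.0372 to 0.267] in S/S baseline and 0.318% [0.146 to 0.603] in A/A baseline. After TNF the share was higher in S/S and the intervals of the genotypes did not overlap, while the baseline intervals did. The sort and the amounts of other cells enter these shares, and their part was not tested. Gated cells were also taken as a share of cells that pass the Cd74 and exclusion conditions alone. They made up 10.98% of these in S/S TNF, 7.56% in A/A TNF, 1.39% in S/S baseline and 4.21% in A/A baseline. On this share the intervals of the genotypes after TNF overlapped. That of S/S TNF began at 9.17% and that of A/A TNF ended at 9.85%. Because the gate counts raw UMIs, every kept cell was also thinned to 3000 UMIs, with 1255, 1884, 1330 and 1089 shallower cells left out; 62 of 4273, 23 of 4568, 2 of 3036 and 3 of 1741 cells then passed in the same order of libraries. Without cells that hold markers of other types, 9 cells were left in S/S TNF (0.163% of kept cells), 4 in A/A TNF (0.062%), 2 in S/S baseline (0.0458%) and 6 in A/A baseline (0.212%). A/A baseline then had the highest share, and A/A TNF stood below A/A baseline. S/S TNF stayed above A/A TNF and S/S baseline, all on few cells. This filter took out cells with at least 3 raw UMIs of another type's markers, or 10 for hepatocyte or erythroid ones. Gated cells after TNF were deeper, which enters such a limit, and its part was not tested.

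**Figure D1:**
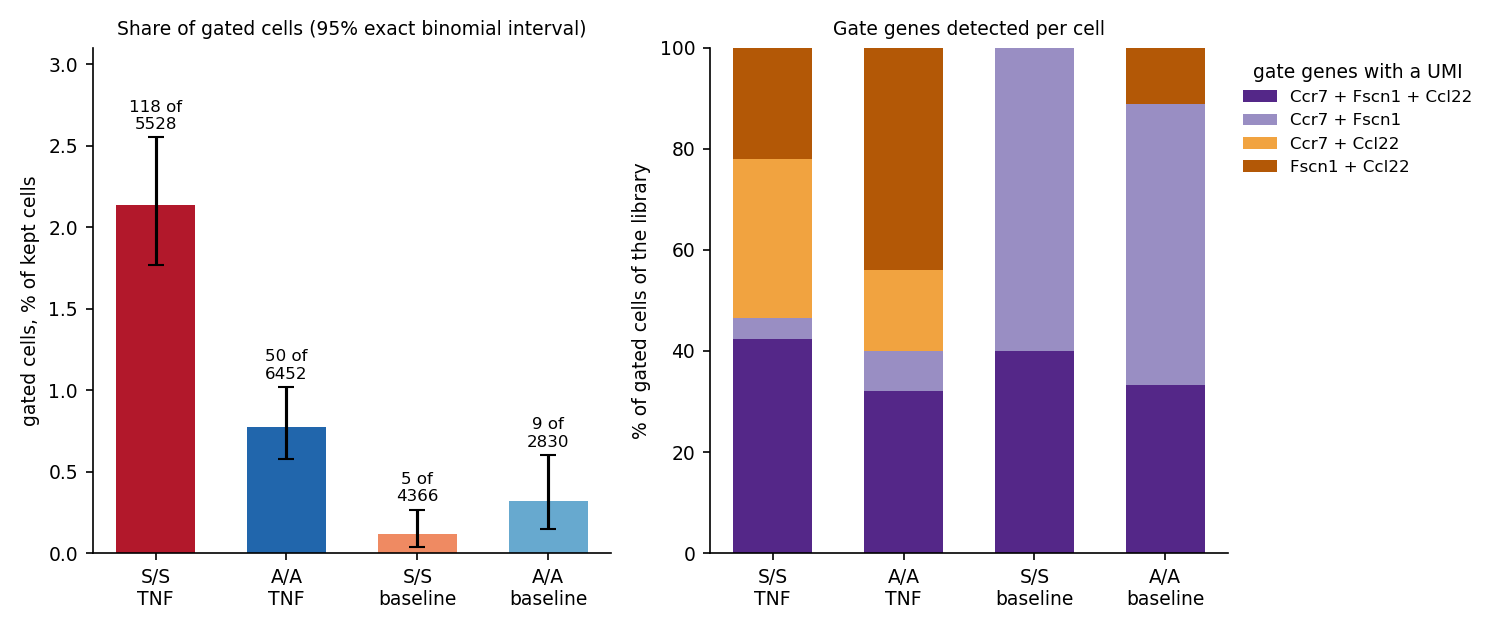
Left, gated cells as a percentage of kept cells in each library, with exact binomial 95% intervals; right, the percentage of gated cells in which each combination of the 3 gate genes had a UMI. The share is highest in S/S TNF at 2.13%, and cells with Fscn1 and Ccl22 but no Ccr7 make up 22.03% of the S/S TNF and 44.0% of the A/A TNF gated cells.

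All 3 gate genes were seen together in 50 of 118 S/S TNF cells, 16 of 50 A/A TNF cells, 2 of 5 S/S baseline cells and 3 of 9 A/A baseline cells. After TNF, the combination of Fscn1 and Ccl22 without Ccr7 was found in 26 of 118 S/S cells and 22 of 50 A/A cells. Ccl22 was detected in 113 S/S TNF and 46 A/A TNF cells, but in 2 S/S baseline and 4 A/A baseline cells. Ccr7 was detected in 92, 28, 5 and 8 cells in the same order of libraries, so the gate was met mainly through Ccl22 after TNF and through Ccr7 with Fscn1 at baseline. At the lower edge of the gate, 13 cells had exactly 5 UMIs of the 3 genes, of which 6 had Il4i1 and 5 had at least 3 UMIs of the complement genes C1qa, C1qb and C1qc (C1q). Just outside, 6 cells had 4 UMIs, of which 1 had Il4i1 and 2 had that much C1q.

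Il4i1, the marker of mature dendritic cells that the gate did not use, was present in most gated cells. It had a UMI in 97 of 118 S/S TNF cells, 38 of 50 A/A TNF cells, 4 of 5 S/S baseline cells and 9 of 9 A/A baseline cells, with 611, 451, 944 and 473 CPM of summed UMIs. In the T cells of the same libraries (at least 2 UMIs of Cd3e and fewer than 10 of Cd74), Il4i1 stood at 1.76, 2.03, 1.65 and 0.887 CPM. Thinned to 3000 UMIs, Il4i1 was found in 63.8% of S/S TNF and 54.0% of A/A TNF gated cells and in 0% and 0.549% of T cells, where median depths were 9425 and 10813 UMIs. B cells, which are not free of the gene, had it in 7.41% and 6.94% of thinned cells after TNF in S/S and A/A, at median depths of 9338 and 10707 UMIs. Il4i1 was thus found in a larger share of gated cells than of T and B cells. Cells with cDC2 genes (defined below) and fewer than 5 UMIs of the gate genes were not lower in S/S TNF, where Il4i1 stood at 635 CPM and had a UMI in 6 of 10 cells; in A/A TNF it stood at 205 CPM in 7 of 12. Zbtb46, a transcription factor of conventional dendritic cells, gave 79, 39, 2 and 16 UMIs in S/S TNF, A/A TNF, S/S baseline and A/A baseline gated cells.

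Ccr7 itself divided the gated cells after TNF. At least 3 Ccr7 UMIs were found in 75 of 118 S/S TNF cells (63.6%) and 18 of 50 A/A TNF cells (36.0%). This limit was set after the data had been seen. Cells at or above it are called Ccr7-high and the others Ccr7-low. At baseline 4 of 5 S/S and 6 of 9 A/A cells were Ccr7-high. Ratios of TNF over baseline in Ccr7-high cells rest on these few and are given without intervals. In S/S TNF, cells at or above this limit held 734 CPM of Il4i1, 1055 CPM of Ccl5 and 54.1 CPM of the monocyte chemokine receptor Ccr2, and cells below it held 410, 171 and 464 CPM. In A/A TNF, cells at or above it held 741 CPM of Il4i1, 1729 CPM of Ccl5 and no Ccr2, and cells below it held 288, 202 and 250.5 CPM. Ccl17 ran the other way, with 1718 CPM at or above the limit and 2399 CPM below it in S/S TNF, and 1163 and 1824 CPM in A/A TNF.

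Genes of macrophages went with low Ccr7. Lyz2, a lysozyme gene of monocytes and macrophages, stood at 649 CPM in the Ccr7-high and 1548 CPM in the Ccr7-low cells of S/S TNF. In those of A/A TNF it stood at 111 and 2786 CPM. There 1 Ccr7-low cell held 41.4% of all A/A TNF Lyz2 UMIs, and 1 other held 36.6% of those of C1q. At least 3 UMIs of C1q were counted in 43 of 118 S/S TNF cells, 14 of 50 A/A TNF cells and no baseline cell. Among Ccr7-high cells this left 22 of 75 in S/S TNF and 0 of 18 in A/A TNF, so about as many of the S/S TNF cells with C1q were Ccr7-high as Ccr7-low (22 and 21). Cells with C1q, in either class, go against the name of mature dendritic cells, and all members are called gated cells here. Their origin was not tested.

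**Figure D2:**
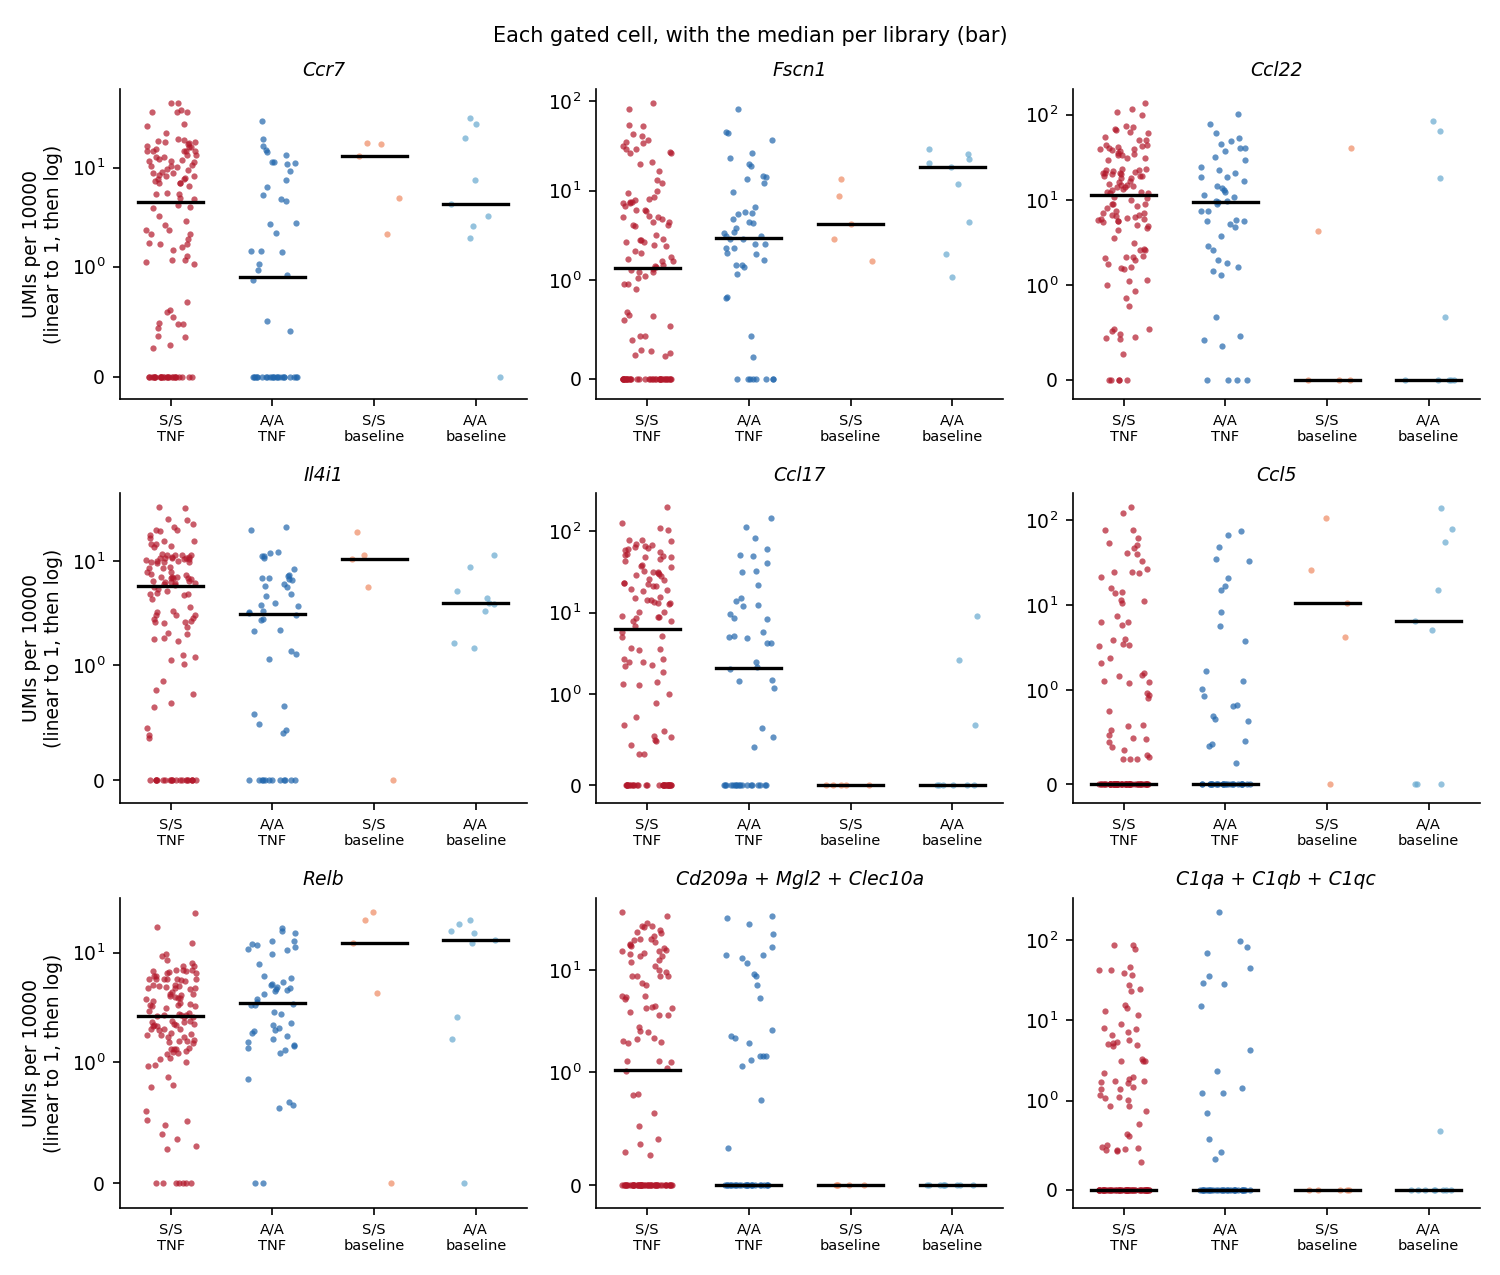
UMIs per 10000 of 9 genes or gene sums in each gated cell (point), by library, with the median as a bar; the axis is linear up to 1 and logarithmic above. The baseline cells have no cDC2 gene and at most 1 UMI of C1q, and the medians of Ccl5 and Relb are higher in both baseline libraries than in the TNF libraries.

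Markers of other cell types differed between the TNF and baseline gated cells. At least 3 UMIs of the 10 neutrophil markers were counted in 77 of 118 S/S TNF and 33 of 50 A/A TNF cells. No baseline cell had as many, though baseline gated cells were shallower. The summed levels were 917, 1364, 48.4 and 16.9 CPM in S/S TNF, A/A TNF, S/S baseline and A/A baseline. In the other kept cells of the libraries they were 20894, 26740, 2608 and 1507 CPM in the same order. The 10 endothelial markers summed to 349, 469, 0 and 8.45 CPM, with all 10 at 0 in S/S baseline and 9 at 0 in A/A baseline. The 10 hepatocyte markers summed to 499.5, 335, 218 and 67.6 CPM. The 9 erythroid markers found in the matrices summed to 1247 CPM in S/S TNF, 105 CPM in A/A TNF, 533 CPM in S/S baseline and 16.9 CPM in A/A baseline, so they followed the genotype. For the other kept cells of the same libraries these erythroid sums were 44784, 3624, 26592 and 2377 CPM. Of the macrophage list, all 10 markers were seen in both TNF groups, while 6 were at 0 in S/S baseline and 5 in A/A baseline, with sums of 2512, 4019, 630 and 211 CPM. The 9 T cell markers left after the gate summed to 17.6, 23.1, 169.5 and 42.3 CPM, with at least 3 UMIs in 7, 2, 1 and 1 cells. The part of these genes in the comparisons below was not tested, but leaving out cells that hold them leaves 9, 4, 2 and 6 cells.

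The few baseline cells can be given one by one. The 5 S/S baseline cells had 121, 32, 2, 10 and 0 UMIs of Ccl5, a chemokine that attracts T cells, and in the same order of cells 0, 0, 2, 0 and 14 UMIs of Ccl22. The 9 A/A baseline cells had 157, 31, 83, 0, 0, 0, 117, 4 and 2 UMIs of Ccl5, and 0, 0, 1, 0, 0, 4, 0, 39 and 33 UMIs of Ccl22. High Ccl5 and high Ccl22 were thus found in different baseline cells of both genotypes. Il12b, which encodes the shared subunit of interleukins 12 and 23, gave 7 UMIs in 2 S/S baseline cells and 10 UMIs in 2 A/A baseline cells, in each genotype the 2 cells with the most Ccl22. Those cells had at most 2 UMIs of Malat1, a nuclear RNA, and at most 6130 UMIs in all. Malat1 gave 751, 964, 1, 510 and 0 UMIs in the S/S and 1366, 656, 944, 816, 809, 1, 1806, 2 and 1 UMIs in the A/A baseline cells.

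MHC class II also differed among the A/A baseline cells. H2-Ab1, the beta chain of a class II molecule, gave 0, 24, 1, 89, 0, 17, 0, 72 and 47 UMIs in the 9 A/A cells, against 96, 82, 23, 78 and 23 UMIs in the 5 S/S baseline cells. The 3 A/A cells with the most Ccl5 (157, 117 and 83 UMIs) had 0, 0 and 1 UMI of H2-Ab1 and 13, 12 and 20 UMIs of Cd74, close to the lower limit of the gate. None of the baseline cells of either genotype held a UMI of the cDC2 genes Cd209a, Mgl2 or Clec10a.

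The cDC2 genes allow a comparison that does not pass through the gate. Cells with at least 3 UMIs of Cd209a, Mgl2 and Clec10a, none of Xcr1 and Clec9a, fewer than 3 of C1q and the same Cd74 and exclusion conditions numbered 58 in S/S TNF, 34 in A/A TNF, 44 in S/S baseline and 22 in A/A baseline. Of these, 28 (48.3% [35.0 to 61.8]) in S/S TNF and 11 (32.4% [17.4 to 50.5]) in A/A TNF were in the maturation gate. At baseline 0 of 44 S/S cells, which allows up to 8.04%, and 0 of 22 A/A cells, which allows up to 15.4%, were in it. As no gated baseline cell held a UMI of these genes, none of the gated baseline cells is counted here. Ccl22 stood at 1782 CPM in S/S TNF and 1452 CPM in A/A TNF cells with cDC2 genes, against 1.70 CPM in S/S baseline and 0 in A/A baseline ones. Ccl17 stood at 3458 and 3599 CPM after TNF in S/S and A/A and was not seen at baseline. Il4i1 reached 652 CPM in S/S TNF and 352 CPM in A/A TNF cells and had no UMI in either baseline library. Ccr7 reached 326 CPM in S/S TNF and 95.3 CPM in A/A TNF cells, again with no UMI at baseline. Cd40, the receptor through which T cells activate dendritic cells, stood at 219 and 159 CPM after TNF in S/S and A/A, against 18.7 and 21.4 CPM at baseline.

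Cells with cDC1 genes (at least 3 UMIs of Xcr1 and Clec9a) were also met in the gate. They were in it in 12 of 58 cells in S/S TNF (20.7% [11.2 to 33.4]) and 1 of 43 in A/A TNF (2.33% [0.0589 to 12.3]), against 0 of 23 in S/S baseline and 0 of 18 in A/A baseline. Their Ccl22 stood at 395 CPM in S/S TNF and 196 CPM in A/A TNF, with no UMI in S/S baseline and 5.03 CPM in A/A baseline. Their Il4i1 stayed low, at 23.5, 30.4, 6.86 and 5.03 CPM in the same order of libraries. Cells with at least 3 UMIs of C1q carried Ccl22 at 325 and 359.6 CPM in S/S TNF and A/A TNF, against 2.37 and 0 CPM in S/S and A/A baseline, and Ccl17 at 422 and 455 CPM after TNF with no UMI at baseline. Ccl22 and Ccl17 were thus higher after TNF in all 3 kinds of cell, in both genotypes.

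**Figure D3:**
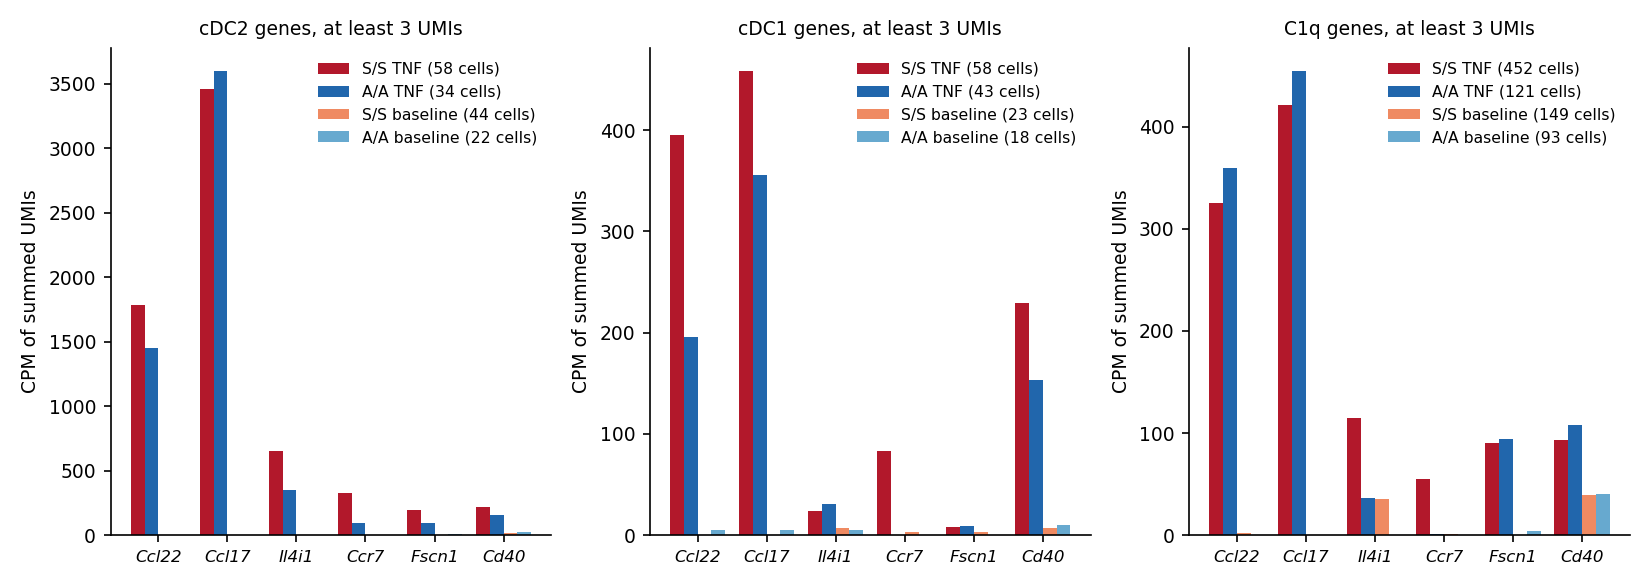
CPM of summed UMIs of 6 maturation genes in cells chosen by cDC2, cDC1 or C1q genes, whether or not they were in the maturation gate; bars are the 4 libraries, the number of cells is in the legend, and each panel has its own scale. Ccl22 and Ccl17 are high in both TNF libraries and at or near 0 in both baseline libraries in all 3 kinds of cell.

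For comparisons of gated cells, each gene's UMIs were added up within a library and expressed as CPM, and log2 ratios were taken after adding 5 CPM to each level. A gene was compared where its pooled rate gave at least 10 expected UMIs in the smaller sum, and is said to be over 2-fold higher or lower at a log2 ratio of at least 1 or at most -1. Between S/S TNF and S/S baseline, 451 genes were compared, with 25.1% over 2-fold higher after TNF and 7.1% lower, at a median log2 ratio of 0.32. Between A/A TNF and A/A baseline, 1554 genes were compared, with 23.4% higher and 12.2% lower, at a median of 0.34. The 5 S/S and 9 A/A baseline cells limit both, since 1 cell held 29.6% of the S/S and 23.7% of the A/A baseline UMIs. Cell Ranger 6.1.2 had counted the TNF libraries and Cell Ranger 7.1.0 the baseline ones, so that version and TNF cannot be told apart. The versions differ in whether intronic reads are counted by default, and the sources used here do not say which setting was used.

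Ccl17 and Cd40 were higher after TNF in both genotypes. Ccl17 had 4945 UMIs in 87 of 118 S/S TNF cells and 1441 UMIs in 32 of 50 A/A TNF cells, against 0 in S/S baseline and 6 in A/A baseline cells. This was at least 27.2-fold higher in S/S TNF, taken against a floor of 3 UMIs over the group, and 28.6-fold higher in A/A TNF. Ccl17 was also higher outside the gate. In B cells of the same libraries its log2 ratio was 3.74 in S/S, with 208 UMIs against 1, and 1.52 in A/A. In T cells it was 0.47 and 0.80. Cd40 had 645 UMIs (258 CPM) in S/S TNF and 244 (269 CPM) in A/A TNF, against 4 (96.9 CPM) in S/S baseline and 5 (42.3 CPM) in A/A baseline. Its log2 ratio was 1.37 [0.05 to 3.07] in S/S and 2.53 [1.38 to 3.88] in A/A. In B cells that of Cd40 was -1.07 and -0.67, and in T cells 0.21 and 0.12. Ccl17 and Cd40 were also higher among Ccr7-high cells, at 1.43 in S/S and 3.38 in A/A for Cd40. For Ccl17 the log2 ratios there were at least 4.39 in S/S and 4.77 in A/A. The baseline side was 4 S/S and 6 A/A cells, with 4 and 3 UMIs of Cd40.

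Of 448 genes compared in both genotypes, 66 were over 2-fold higher and 10 over 2-fold lower in both. The TNF groups share no library, but the genotypes share their counting version at each time. The 10 genes that lead by the smaller of their ratios were Ccl17, Tgfbi, Cd209a, Mkrn1, Rbm3, Cd40, Cd53, Lgals3, Hnrnpa1 and Ccl9. Tgfbi, a secreted matrix protein, had 844 and 161 UMIs in S/S and A/A TNF against 1 and 1 at baseline, with log2 ratios of 3.55 [1.29 to 5.93] and 3.76 [1.79 to 5.14]. Cd209a, the lectin of cDC2, had 643 and 159 UMIs against none at baseline in either genotype, with log2 ratios of at least 1.82 and 2.79. In Ccr7-high cells Tgfbi was too low to be compared, with log2 ratios of 2.34 in S/S and 0.70 in A/A. Mkrn1, a ubiquitin ligase, had log2 ratios of 2.25 and 1.69 in S/S and A/A, and 2.18 and 2.22 in Ccr7-high cells. Cd53, a tetraspanin of leukocytes, had 2.27 and 1.33, and 1.92 and 0.40 in Ccr7-high cells. Rbm3, an RNA-binding protein of the cold response, had 1.41 and 1.45 here, and in T cells of the same libraries it had 1.34 in S/S and 1.75 in A/A, a similar size in cells outside the gate.

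Genes lower after TNF in both genotypes included parts of the maturation program itself. Relb, the NF-kB subunit of the non-canonical pathway, stood at 324 and 493 CPM in S/S and A/A TNF, against 1526 and 1403 CPM at S/S and A/A baseline. Its log2 ratio was -2.22 [-2.59 to -1.82] in S/S and -1.50 [-1.76 to -1.23] in A/A, and -2.08 and -1.05 in Ccr7-high cells. In T cells Relb ran the other way, with 1.64 in S/S and 1.06 in A/A, and in B cells it had -0.41 and -0.18. Rel, another subunit, had log2 ratios of -1.005 and -1.75, and -0.75 and -1.16 in Ccr7-high cells. In B cells of S/S and A/A Rel had -1.12 and -1.71, a similar size outside the gate, and in T cells 0.09 and -0.68. Cd63, a tetraspanin of late endosomes, had -1.51 and -1.86, but 0.38 in S/S without cells that hold other types' markers. Samsn1, a signalling adaptor with over 100 kb of introns, had -1.30 and -1.51, but -0.87 and -0.55 in Ccr7-high cells. Tmem123 had -1.77 and -1.02, and -1.44 and -0.10 in Ccr7-high cells. The others were Malat1, Selplg (the ligand of P-selectin), Cytip (a regulator of adhesion), Gpr183 (an oxysterol receptor that guides dendritic cells) and H2-Eb2. The last 2 were within 2-fold in A/A, at -0.81 for Gpr183 and -0.66 for H2-Eb2. In Ccr7-high cells of A/A, Selplg had -0.56, Cytip -0.97, Gpr183 -0.51 and H2-Eb2 -0.12, and Cytip had -0.84 in those of S/S, so these were within 2-fold there. Malat1 had log2 ratios of -1.46 and -1.58 here but -0.20 and 0.06 in the T cells of S/S and A/A.

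**Figure D4:**
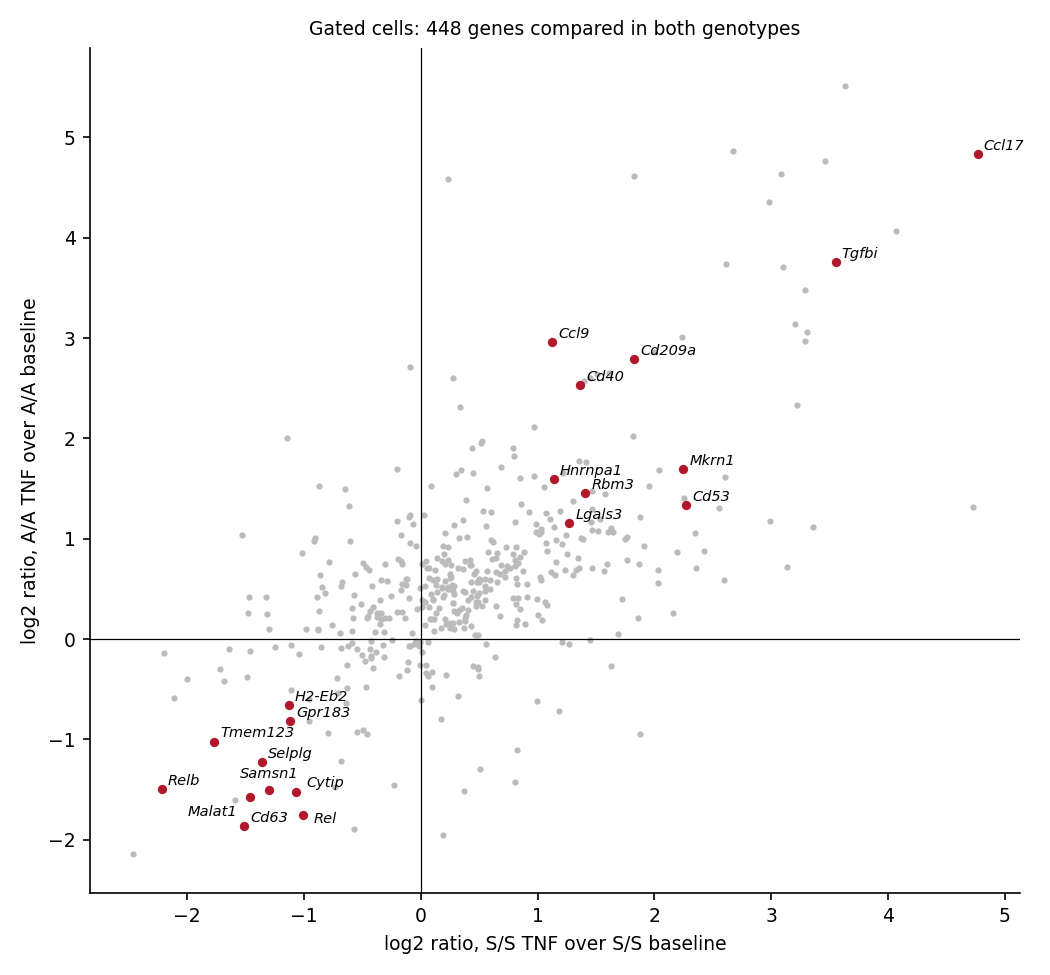
Each point is 1 of the 448 genes compared in both genotypes, by its log2 ratio of TNF over baseline in S/S (horizontal) and A/A (vertical) gated cells; red points are the named genes. Ccl17 lies at the upper right with ratios of at least 4.77 in S/S and 4.84 in A/A, and Relb at the lower left with -2.22 and -1.50.

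Ccl9, a chemokine that attracts myeloid cells through Ccr1, was over 2-fold higher after TNF in both genotypes. It had 1071 and 270 UMIs (428 and 297 CPM) in S/S and A/A TNF. At S/S and A/A baseline it had 8 and 4 UMIs (194 and 33.8 CPM), the 4 in 1 cell. Its log2 ratios were 1.12 [0.16 to 2.29] in S/S and 2.96 [1.71 to 4.42] in A/A. Of the 10 such genes above, 8 were found in the RefSeq promoter table. Ccl9 was the single one of these that held an NF-kB-type motif within 250 bases before its start. The motif searched was GGG, any 2 bases, TTTCC, on either strand. That motif stands in the same window of 447 of 27025 genes (1.65%). The stretch is shown because it carries the match, in capitals, read on the strand of the gene, on which the motif appears as its reverse complement; it lies on the minus strand at chr11:83578637-83578701 of GRCm38.p6, where the counts themselves were made on another build.
Ccl9: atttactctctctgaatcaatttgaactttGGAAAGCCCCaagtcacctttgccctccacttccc
A match of letters shows no binding. In Ccr7-high cells the log2 ratio of Ccl9 was 0.59 in S/S and 1.32 in A/A, the last from a gene too low there to be compared. Ccl9 was also higher outside the gate, with 1.06 in S/S and 1.95 in A/A B cells, and 0.42 and 0.59 in T cells.

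The other chemokines ran in both directions. Of 26 listed, 5 were compared in S/S, with 3 over 2-fold higher and 1 lower at TNF, and 10 in A/A, with 8 higher and 1 lower; the medians were 1.12 and 2.95, beside 0.32 and 0.34 for all genes. All genes compared gave 25.1% higher and 7.1% lower in S/S, and 23.4% and 12.2% in A/A. Without cells that hold other types' markers the A/A median of chemokines was -0.16, over 3 genes. Ccl5 was the lower one, at 719 and 749 CPM in S/S and A/A TNF against 3995 and 3331 CPM at S/S and A/A baseline, with log2 ratios of -2.47 and -2.15. Cxcl9, a ligand of Cxcr3, had 1445 UMIs in S/S TNF and 214 in A/A TNF, against 0 in S/S baseline and 12 in 1 A/A baseline cell. Outside the gate its S/S log2 ratio was 2.36 in T cells and 3.59 in B cells. Cxcl16 differed little, at -0.46 and 0.23. Cxcl2, which attracts neutrophils, had 409 and 267 UMIs in S/S and A/A TNF against 1 and 0 at baseline. In S/S it was too low to be compared, as the baseline cells held 41297 UMIs in all and the TNF cells 2502504.

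The maturation list shows most of its compared members lower after TNF. Of 28 listed genes, 8 were compared in S/S, with 1 over 2-fold higher and 4 lower, and 20 in A/A, with 1 higher and 11 lower; the medians were -0.96 and -1.04. The higher one was Ccl17 in both. For all genes compared, 25.1% were higher and 7.1% lower in S/S, with 23.4% and 12.2% in A/A. Tbc1d4, a regulator of vesicle traffic, stood at 552 and 593 CPM in S/S and A/A TNF against 1671 and 1809 CPM at S/S and A/A baseline; its introns are over 100 kb, a class described below. Cacnb3, a calcium channel subunit of mature dendritic cells, stood at 87.1 and 154 CPM after TNF against 339 and 482 CPM at S/S and A/A baseline. In Ccr7-high cells the A/A median was -0.41, with 5 of 24 higher and 8 lower, which is nearer to 0 than over all gated cells. Without cells that hold markers of other types, which leaves 9 S/S TNF and 2 S/S baseline cells, the S/S median was 0.71.

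NF-kB genes, which TNF is known to induce, were mixed. Of 29 listed, 5 were compared in S/S, with 2 over 2-fold higher and 2 lower. In A/A 19 were compared, with 5 higher and 4 lower. The shares over all genes compared were 25.1% higher and 7.1% lower in S/S, and 23.4% and 12.2% in A/A. The count of higher NF-kB genes in A/A is thus near the share of all genes. Nfkbia, the feedback inhibitor, stood at 1086 and 1228 CPM in S/S and A/A TNF against 484 and 617 CPM at S/S and A/A baseline, with log2 ratios of 1.16 and 0.99. Tnfaip3, another inhibitor of the pathway, had 1.73 in A/A, and its 2 UMIs in S/S baseline were too few to compare. Map3k14, the kinase of the non-canonical pathway, had -2.68 in A/A, and Birc2, which keeps that kinase low, had -1.74. Traf1 had -0.96 in S/S and -0.59 in A/A.

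Class II genes set the genotypes apart. Among all genes compared, 25.1% were higher and 7.1% lower in S/S, and 23.4% and 12.2% in A/A. Of 13 listed, 10 were compared in S/S, with none over 2-fold higher and 1 lower at a median of -0.38, and 12 in A/A, with 9 higher and none lower at a median of 1.59. H2-Ab1 stood at 9299.5 CPM in S/S TNF and 6813 CPM in A/A TNF, against 7313 CPM in S/S baseline and 2113 CPM in A/A baseline. Ciita, the master activator of class II transcription, had 713 UMIs in S/S TNF and 288 in A/A TNF, against 10 in S/S baseline and 1 in A/A baseline. Its log2 ratio was 0.23 in S/S and 4.58 [2.62 to 5.95] in A/A. Of the 9 A/A baseline cells, 4 had 0 or 1 UMI of H2-Ab1, and the difference between the genotypes was not tested.

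The lists of uptake, metal response and glycolysis genes had medians over 2-fold higher after TNF in both genotypes. Beside them, 25.1% of all genes compared were higher and 7.1% lower in S/S, and 23.4% and 12.2% in A/A. Of 27 uptake and lysosome genes, 12 were compared in S/S, with 7 over 2-fold higher and 2 lower at a median of 1.52, and 16 in A/A, with 11 higher and none lower at 1.90. Cybb, the catalytic subunit of the phagocyte oxidase, had 1778 and 645 UMIs in S/S and A/A TNF against 0 and 7 at S/S and A/A baseline. Lyz2 had 2477 and 1660 UMIs (990 and 1828.5 CPM) against 5 and 10 (121 and 84.5 CPM). Raw UMIs in this paragraph come from unlike totals, 2502504 and 907852 in S/S and A/A TNF against 41297 and 118291 at S/S and A/A baseline. The macrophage sums and C1q cells given above moved with these genes, and the S/S median was -0.67, over 6 genes, without cells that hold markers of other types. Of 21 genes of the NRF2 and metal response, 9 were compared in S/S, with 5 higher and 1 lower at 1.62, and 14 in A/A, with 9 higher and none lower at 1.47. Mt1, a metallothionein, stood at 2842 and 1643 CPM in S/S and A/A TNF against 460.1 and 118 CPM at S/S and A/A baseline. Hmox1, which breaks down heme, had 702 and 181 UMIs against 1 and 0. Of 22 glycolysis genes, 6 were compared in S/S, with 3 higher at a median of 1.01, and 11 in A/A, with 7 higher at 1.17; none was over 2-fold lower in either. In S/S TNF cells of at least 3 Ccr7 UMIs, all 5 compared were higher, at 1.12.

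Cholesterol genes ran the other way in A/A, where 23.4% of all genes compared were higher and 12.2% lower. Of 20 listed, 9 were compared in A/A, with 1 over 2-fold higher after TNF and 5 lower at a median of -1.01, and in Ccr7-high cells 3 of 8 were lower and none higher at -0.87. Srebf2, the transcription factor of the pathway, stood at 140 CPM in A/A TNF against 287 CPM in A/A baseline, a log2 ratio of -1.01 [-1.56 to -0.44]. Hmgcs1, an enzyme of sterol synthesis, had -1.495, and Cyp51, another, had -1.23. The higher one was Nr1h3, a sterol-sensing nuclear receptor, at 1.38. In S/S only Npc2, which carries cholesterol out of lysosomes, could be compared, at -0.50. No mitochondrial gene was past 2-fold after TNF among the 7 compared in S/S and the 9 in A/A, at medians of 0.32 and 0.16.

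The highest ratios within each genotype add further genes. In S/S they included Clec7a, Cxcl9, Eif5a, Ccnd2 and Txnrd1, beside Ccl17, Tgfbi, Cd53 and Mkrn1, which were over 2-fold higher in both genotypes. Clec7a had 684 UMIs (273 CPM) in S/S TNF and 1 (24.2 CPM) in S/S baseline, a log2 ratio of 3.25 [0.99 to 5.63]. Txnrd1, an enzyme of redox balance, had 738 UMIs (295 CPM) and 3 (72.6 CPM), a log2 ratio of 1.95 [0.46 to 3.91]. In A/A the list was led by C1qa, with 388 UMIs in 14 A/A TNF cells and 1 in A/A baseline. Of the A/A TNF UMIs of C1qa, 38.4% lay in 1 cell. The list also held C1qb, C1qc, Naaa, Mgl2, Fcgr2b and Ahnak. In Ccr7-high cells of A/A TNF, C1qa, C1qb and C1qc had 1, 0 and 1 UMI, so these genes lay in the Ccr7-low cells. Ahnak, a large membrane scaffold, had 342 UMIs in A/A TNF and 5 in A/A baseline, a log2 ratio of 3.01 [1.87 to 4.36], and 3.38 in Ccr7-high cells.

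Genes with long introns stood higher in the baseline libraries. Genes with over 100 kb of introns took 3.36% of UMIs in S/S TNF and 3.89% in A/A TNF gated cells, against 7.96% in S/S baseline and 12.8% in A/A baseline, and T cells showed the same order with 3.44, 3.52, 10.5 and 13.4%. Of the 190 genes over 2-fold lower in A/A TNF, 89 had introns of that length, beside 145 of all 1553 genes compared there that had a known length. Of the 32 lower in S/S TNF, 3 had such introns, beside 11 of 450. The A/A ones include Enox2, Tmcc3, Vti1a, Phlpp1, Cmip, Cers6 and Ptprj, which were among the 10 lowest and are named with no further reading. Enox2, the lowest, had 16 UMIs in A/A TNF and 86 in A/A baseline, a log2 ratio of -5.02, and in T cells it had -2.25.

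Between S/S TNF and A/A TNF, which share the counting version, the gated cells differed at few genes. Of 6600 genes compared, 1.47% (97) were over 2-fold higher in S/S and 2.23% (147) lower, at a median log2 ratio of -0.14. Higher in S/S by the rule of size were Cd209d, Clec7a, Mrps6, Slc5a3, Ahr, Cd200, Cxcl11, Ppt1, Lgmn and Cxcl9. Lower were Apol7c, H2-M2, Slc46a3, Aldh1a2, Abcg3, Haus8, Adam23, Mbd1, Rnaset2b and Arap2. Ccr7-high cells made up 63.6% of the S/S and 36.0% of the A/A gated cells, so values in those cells are given beside each ratio.

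Apol7c, an apolipoprotein L gene and a member of the maturation list, had the lowest log2 ratio of the genes named by the rule of size. It had 250 UMIs in 22 of 118 S/S TNF cells and 696 UMIs in 22 of 50 A/A TNF cells, which is 99.9 and 767 CPM. The log2 ratio was -2.88 [-3.08 to -2.68], and -2.80 in Ccr7-high cells. At baseline it had 2 UMIs in 5 S/S cells and 82 UMIs in 9 A/A cells, with the same direction and a log2 ratio of -3.71 [-6.03 to -1.91]. The A/A baseline cells held 27, 0, 6, 0, 0, 8, 41, 0 and 0 UMIs, and the S/S ones 0, 0, 1, 0 and 1. Other apolipoprotein L genes are close in sequence, so reads could be split between copies. H2-M2, a non-classical class I gene of mature dendritic cells, had 178 UMIs in S/S TNF and 346 in A/A TNF, a log2 ratio of -2.34, and -1.11 in Ccr7-high cells. Aldh1a2, which makes retinoic acid, had 39 UMIs in S/S TNF and 63 in A/A TNF, a log2 ratio of -1.85 [-2.34 to -1.35], and -2.47 in Ccr7-high cells.

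The genes named as higher in S/S TNF include the lectins Cd209d and Clec7a and the Cxcr3 ligands Cxcl9 and Cxcl11. Cd209d, a lectin of the DC-SIGN family, had 207 UMIs in 29 S/S cells and 9 UMIs in 6 A/A cells, a log2 ratio of 2.56 [1.85 to 3.23], and 2.86 in Ccr7-high cells. Clec7a, the beta-glucan receptor dectin-1, had 684 UMIs in 71 S/S cells and 62 UMIs in 19 A/A cells, a log2 ratio of 1.92 [1.57 to 2.30], and 3.53 in Ccr7-high cells; in B cells of the same libraries it was 2.08. Ahr, the aryl hydrocarbon receptor, had 281 UMIs in S/S and 33 in A/A, with 1.504 overall and 1.68 in Ccr7-high cells. Cxcl9 stood at 577 CPM in S/S and 236 CPM in A/A, and Cxcl11 at 114 and 43.0 CPM, with 1.27 and 1.31 overall and 1.76 and 2.69 in Ccr7-high cells. Cxcl9 was seen in 60 of 118 S/S cells and 35 of 50 A/A cells, a lower share of cells in S/S, and 1 cell held 21.7% of its S/S UMIs. The lysosomal enzymes Lgmn and Ppt1 had 1.28 and 1.28 overall and 2.52 and 2.82 in Ccr7-high cells, but 1 cell held 63.3% of the A/A UMIs of Ppt1. Cd200, the ligand of an inhibitory receptor, had 1.33 but 0.62 in Ccr7-high cells, and 1.20 in T cells. Mrps6 and Slc5a3 overlap in the genome and may share counts, as Rnaset2b may with its near-identical copy.

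Glycolysis genes were higher in S/S TNF as a list, where 1.47% of all genes compared were over 2-fold higher and 2.23% lower. Of 22 listed, 20 were compared, with 5 over 2-fold higher and none lower, at a median of 0.72 beside -0.14 for all genes. The 5 were Hilpda, Tpi1, Slc2a1, Pgk1 and Ldha. Hilpda, a lipid droplet protein induced by low oxygen, had 111 UMIs in 33 S/S cells and 2 UMIs in 2 A/A cells. Slc2a1, the glucose transporter, had 145 UMIs in S/S and 19 in A/A, a log2 ratio of 1.28 [0.69 to 1.88]. Pgk1 stood at 264 CPM in S/S and 109 CPM in A/A, Tpi1 at 155 and 59.5 CPM, and Ldha, which makes lactate, at 369 and 178 CPM. In Ccr7-high cells 9 of 18 were over 2-fold higher and none lower, at a median of 0.96.

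Over all gated cells, the medians of the other lists were nearer to 0. The shares of all genes compared were 1.47% over 2-fold higher and 2.23% lower. The 13 class II genes had a median of 0.36 with none past 2-fold either way, 0.83 with 5 of 12 higher in Ccr7-high cells, and -0.24 without cells that hold other types' markers. The 27 NF-kB genes compared had a median of -0.25 with none past 2-fold, and the 30 cytoskeleton genes -0.15 with none. Of 26 maturation genes, 2 were higher and 3 lower at -0.21, and in Ccr7-high cells 1 of 24 was higher and 7 lower at -0.52, while without cells that hold other types' markers the median was 0.98, over 14 genes. Of 15 costimulation genes, Cd200 and Cd24a were over 2-fold higher and none lower, while Cd86, Cd83, Cd40 and Cd80 had 0.30, 0.10, -0.06 and 0.24. Among 17 chemokines 3 were higher and 3 lower at -0.04, and in Ccr7-high cells 5 of 9 were higher and none lower at 1.47. The lowest over all gated cells, Cxcl13, rested on 1 cell, which held 96.2% of the 286 A/A UMIs. Likewise Hspa1a, a heat shock gene, had 259 UMIs in 6 S/S cells and 1 UMI in 1 A/A cell.

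The remaining lists stand beside 1.47% of all genes over 2-fold higher in S/S and 2.23% lower. The list of immediate early and heat shock genes and that of transcription factors had larger shares than that, both ways. Of 28 transcription factors compared, Ahr was higher and Klf2, Nr4a1 and Hlx were lower, at a median of -0.13. Of 32 type I interferon genes, Ifi27l2a, Ly6a and Ifit1 were higher and none lower, at -0.14. Among chemokine receptors 1 of 11 was higher, namely Cxcr4, which holds cells by Cxcl12, with 312 UMIs in S/S and 50 in A/A. Of 14 TNF family genes 1 was lower, Ltb, which drives lymphoid tissue formation, with 57 and 75 UMIs in S/S and A/A. Of 8 cytokines, Vegfa was higher, and of 12 GBP and IRF1 genes, Iigp1 was lower. Of 20 survival genes, Bbc3 and Bcl2a1a (uncertain, since it has near-identical copies) were lower, and of 16 regulatory genes, Ahr and Arg1 were higher. Of 23 immediate early genes, Hspa1a, Hspa1b and Atf3 were higher and Egr1 and Egr2 lower. Of 10 cell cycle genes, Stmn1 was lower, with all 48 A/A UMIs in 1 cell. No gene was past 2-fold among the 22 MHC class I genes, the 18 NRF2 and metal genes and the 13 mitochondrial genes. Of 24 uptake genes 2 were higher, and of 19 cholesterol genes 1.

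**Figure D5:**
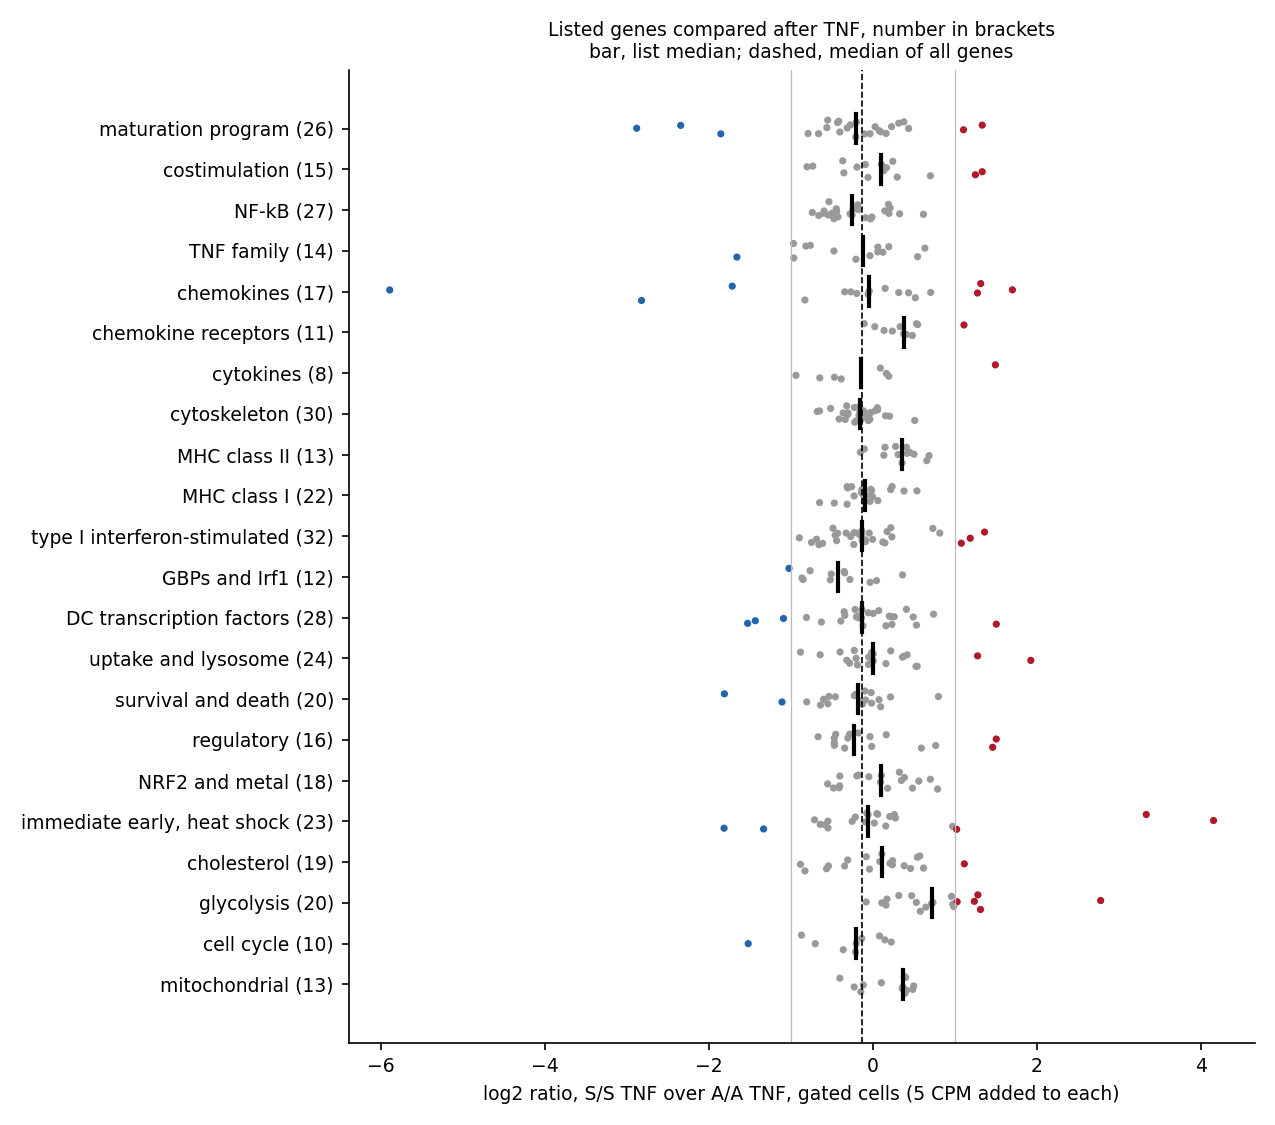
Log2 ratio of S/S TNF over A/A TNF for each listed gene compared (points), by list, with the list median as a bar, the median of all genes as a dashed line and grey lines at 2-fold either way; red and blue points lie beyond them. Glycolysis genes have a median of 0.72 with 5 of 20 past 2-fold, and NF-kB, cytoskeleton and class II genes have none.

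Between S/S baseline and A/A baseline, 5 cells stood against 9. Of 527 genes compared, 9.11% (48) were over 2-fold higher in S/S and 19.2% (101) lower, at a median of 0.02. Class II genes were higher in S/S baseline, with 4 of 6 compared over 2-fold higher, none lower and a median of 1.61. H2-Eb1 had 566 UMIs in the 5 S/S cells and 285 UMIs in the 9 A/A cells, a log2 ratio of 2.51 [2.30 to 2.72], and 3.33 in Ccr7-high cells. Ctsh, a lysosomal protease, had 71 UMIs in S/S and 60 in A/A, a log2 ratio of 1.75. Genes of cholesterol synthesis were lower in S/S baseline: Hmgcs1 had 0 UMIs in S/S and 58 in 5 A/A cells, and Idi1 had 0 and 70, with 72.9% of the A/A UMIs of Idi1 in 1 cell. Klf2, a transcription factor that restrains activation, had 2 UMIs in S/S and 51 in A/A, a log2 ratio of -3.03 [-5.37 to -1.20], and after TNF it had -1.53. Of the 101 lower genes, 48 had over 100 kb of introns, beside 107 of 526 genes compared with a known length, a class that took 7.96% of UMIs in S/S and 12.8% in A/A baseline gated cells. Ftl1, the ferritin light chain, had 477 UMIs in S/S and 143 in A/A, while its near-identical copy Ftl1-ps1 had 1 and 203, so neither can be read alone.

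Against all other kept cells of their library, gated cells stood out by the genes of the gate and by a wider set that the same cells chose, given as a description. The 20 genes with the highest smaller ratio over both TNF libraries were Ccl22, Ccr7, Ccl17, Tbc1d4, Il4i1, Tspan3, H2-Eb2, Cacnb3, Cd83, Nr4a3, Fscn1, Mgl2, Bcl2l14, Etv3, Ly75, Nudt17, Ehf, Mreg, Swap70 and Dcstamp. Cd83, a surface marker of mature dendritic cells, stood at 476 and 443 CPM in S/S and A/A TNF gated cells, against 33.7 and 20.9 CPM in the other cells. Ly75, the uptake receptor DEC-205, stood at 190 and 145 CPM against 11.7 and 12.03 CPM. Etv3, a transcription factor of monocyte-derived and mature dendritic cells, stood at 645 and 671 CPM against 62.1 and 64.9 CPM. Mreg, an organelle traffic protein, was higher at baseline, with 94.3 and 129 CPM in S/S and A/A TNF gated cells against 678 and 752 CPM in S/S and A/A baseline ones. Mgl2 and Dcstamp, a protein of cell fusion, had no UMI in the baseline gated cells of either genotype.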

How the data were processed

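Deposited files were filtered UMI counts of 55414 genes per barcode, made by the authors with Cell Ranger on mm39, per the submitters' processing notes; per the file headers, version 6.1.2 made the TNF and 7.1.0 the baseline matrices. The sources used here do not say whether intronic reads were included. UMIs remove PCR copies, but intervals cover counting error only. Precision follows depth: the kept cells held 53969689 UMIs in S/S TNF, 53463285 in A/A TNF, 29710749 in S/S baseline and 20514857 in A/A baseline.

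Gated cells, their summed counts, CPM and log2 ratios were computed in Python (3.11.15) with pandas 2.3.3, scipy 1.17.1 and numpy 2.4.6, and drawn with matplotlib 3.10.9; shares and ratios have exact (Clopper-Pearson) 95% intervals. No doublet caller was run and doublets were left in; counts of C1q and of other cell types' markers are given instead. The ratio step was checked on simulated data. Of 670 listed genes, 668 were found in the matrices. Intron lengths came from a GRCm38 annotation, by gene identifier.

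The members, gene lists and tests were chosen with earlier results of these data known. Named genes have at least 50 CPM in the higher library, a UMI in at least 20% of its gated cells, at most 50% of UMIs in 1 cell and no lower CPM than the other cells, and are not gate, mitochondrial or sex-linked genes: the 10 highest and 10 lowest ratios per comparison, 10 each way by the smaller ratio for TNF in both genotypes, 20 against other cells, and 4 members or more per list. Genes outside this rule, such as Cxcl13, Hspa1a, Cxcl16 and Zbtb46, were chosen after their values were seen. Lists covered maturation, costimulation, NF-kB, TNF family, chemokines and their receptors, cytoskeleton, cytokines, MHC class I and II, interferon and GBP genes and transcription factors. Others covered uptake, survival, regulation, NRF2 and metals, immediate early and heat shock genes, cholesterol, glycolysis, cell cycle and mitochondrial genes. Some genes that meet the rule are not reported here.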

Additional observations from a re-analysis of the deposited data

Results flagged for a closer look

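Fabp5, a fatty acid binding protein, and Ftl1, the ferritin light chain, were the genes over 2-fold in opposite directions after TNF in the 2 genotypes, among the 448 genes compared in both. Fabp5 had 1419 UMIs in S/S TNF against 68 in S/S baseline, a log2 ratio of -1.53, and 665 in A/A TNF against 42 in A/A baseline, a log2 ratio of 1.03. The S/S minus A/A difference was -2.56 and was not tested. Ftl1 had 13073 UMIs in S/S TNF against 477 in S/S baseline, a log2 ratio of -1.14, and 4416 in A/A TNF against 143 in A/A baseline, a log2 ratio of 2.00. The difference of -3.15 was not tested either. The near-identical copy Ftl1-ps1 had 99 and 52 UMIs in S/S and A/A TNF, and 1 and 203 in S/S and A/A baseline gated cells. T cells of the A/A baseline library showed the same split, with 793 UMIs of Ftl1 and 1633 of Ftl1-ps1, against 7635 and 20 in S/S baseline.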

How the results depend on the processing

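No paired analysis was possible because each group had 1 library, and no replicate could be left out. Values past 2-fold kept their sign under the alternatives run for named genes and list medians, except 3. List medians within 2-fold often changed sign. A kept sign is not a kept size. Without other types' cells, where fewer values could be judged, 13 named-gene values stayed the same, 14 moved and 1 reversed. For list medians the numbers were 18, 27 and 2. With at least 3 Ccr7 UMIs, 50 gene values stayed the same and 18 moved. Without cells that hold markers of other types, which left 9, 4, 2 and 6 cells in S/S TNF, A/A TNF, S/S baseline and A/A baseline, Cd63 had a TNF log2 ratio of 0.38 in S/S, the uptake list a median of -0.67 in S/S and the chemokine list -0.16 in A/A. There the maturation list also had 0.71 for TNF in S/S and 0.98 for S/S against A/A after TNF. The cause was not tested, though fewer cells and genes enter. Raising or lowering the gate to 8 or 3 UMIs kept each count within 1.5 times. The NF-kB median for TNF in S/S was 0.20 with 5 expected UMIs. Counts below are genes over 2-fold higher and lower.

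With 30 expected UMIs, TNF gave 23 and 8 in S/S and 102 and 37 in A/A, S/S against A/A gave 41 and 50 after TNF and 19 and 19 at baseline. With 5 expected UMIs, TNF gave 247 and 80 in S/S and 738 and 423 in A/A, S/S against A/A gave 222 lower after TNF and 117 and 264 at baseline; fewer or more genes are tested in both cases. With a pseudocount of 1 CPM, S/S against A/A after TNF gave 160 and 264, and with 20 CPM it gave 42 and 50. With the median ratio set to 0, TNF gave 57 lower in S/S and 222 higher in A/A. Without cells that hold other types' markers, TNF gave 71 and 20 in S/S and 66 and 88 in A/A, S/S against A/A gave 23 lower after TNF and 42 lower at baseline, and the shares were 0.163% in S/S TNF and 0.062% in A/A TNF, against 0.0458% in S/S baseline and 0.212% in A/A baseline, so that the direction of TNF turned in A/A.

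The added alternatives were chosen after seeing the data. With at least 3 Ccr7 UMIs, S/S against A/A after TNF gave 204 higher, TNF in A/A 237 higher, and the shares were 1.36% in S/S TNF and 0.279% in A/A TNF. Without C1q cells, S/S against A/A after TNF gave 184 higher, and the shares were 1.36% and 0.558%. With genes of under 10 kb of introns, S/S against A/A gave 55 and 95 after TNF and 27 and 47 at baseline, and TNF gave 20 lower in S/S and 103 and 30 in A/A. The share in S/S TNF was 2.87% at 500 genes and 10% mitochondrial UMIs. Thinned to 3000 UMIs, it was 1.45% in S/S TNF and 0.504% in A/A TNF. Depth limits the baseline groups, where a gene needed about 242 CPM in S/S to be compared.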
